A study of Mus musculus with 12 samples.

Results

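Regulator of G-protein signaling (RGS) genes were examined in hippocampal slices after chemical long-term potentiation (cLTP, here LTP). The 10 genes Rgs2, Rgs4, Rgs6, Rgs7, Rgs8, Rgs10, Rgs14, Rgs16, Rgs17 and Rgs20 were taken by name from the 41091 gene IDs of each count table, after the IDs had been matched to GENCODE M21. All 10 were present in both tables, and all 10 passed the filter on low counts in every comparison. RNA was measured by RNA-seq of total RNA depleted of ribosomal RNA, in acute hippocampal mini-slices from wild-type C57BL/6 mice aged 2 to 3 months, with the dentate gyrus trimmed away. The 1 hr LTP and 3 hr LTP groups received forskolin, which activates adenylyl cyclase, at 50 uM. After 5 min KCl (30 mM) and calcium (10 mM) were added to the forskolin, and the treatment ended at 10 min. The 1 hr control and 3 hr control groups received 0.2% DMSO over the same 10 min. Slices were frozen 1 hr or 3 hr after treatment, with 3 libraries per group and both treatments taken from each animal of a time point. Before sequencing, the authors used qPCR to choose samples in which Arc mRNA and the short Homer1 isoform had risen after LTP induction. Hprt and the long Homer1 isoform had to be unchanged in them. The LTP effects below describe slices chosen in this way, and the part of this choice in them was not tested. Each library is whole tissue with slices of 1 animal pooled, so fewer cells of a type and less RNA per cell cannot be told apart in any value below.

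RGS proteins speed up the hydrolysis of GTP by G alpha subunits and thereby end the signal of G-protein-coupled receptors. They are sorted into subfamilies by sequence. Rgs2, Rgs4, Rgs8 and Rgs16 belong to the small R4 proteins, Rgs6 and Rgs7 to the R7 proteins that pair with the G beta subunit Gnb5, Rgs10 and Rgs14 to the R12 group, and Rgs17 and Rgs20 to the RZ group, which acts on Gz and Gi/o. Rgs2 is known for its preference for Gq, and Rgs14 for its enrichment in CA2 pyramidal neurons. Rgs10 is abundant in microglia.

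Depth and the state of the libraries bear on all of these values. Library totals lay between 37118382 and 50815001 counts, and the least counted member in any library, Rgs16 in 1 hr LTP replicate 1, had 262 counts. A floor of 3 counts corresponded to at most 0.0791 CPM (counts relative to library size, scaled with TMM factors), far under the lowest member value of 6.36 CPM, and covers counting error only. 1 hr control replicate 2, which the study set aside as an outlier of its clustering, stood apart from its replicates (chi-square per degree of freedom of 47.0 and 63.3, against 10.2 between the remaining pair), and so did 3 hr LTP replicates 2 and 3 from each other (85.6, the highest of all replicate pairs). The tests below leave out 1 hr control replicate 2, and its values are printed beside the others. Markers of excitatory neurons, CA1, CA2 and CA3 pyramidal neurons were present in all groups. Dentate granule cell markers were still measured after trimming, with a summed level of 169 to 288 CPM over 4 genes. The 3 choroid plexus markers summed to 22.3 to 28.5 CPM, of which Kl made up 21.5 to 28.4 CPM, while Ttr reached at most 2.22 CPM in any library and Kcnj13 averaged at most 0.0257 CPM in any group.

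The stretches upstream of Rgs2 and Rgs4 are shown because these 2 genes rose together after LTP induction. The treatment held forskolin, an activator of the enzyme that makes cAMP, beside KCl and calcium. The part of cAMP or of these stretches in the rise was not tested. Each line is a RefSeq promoter window of 300 bases on GRCm38.p6, read 5′ to 3′ on the gene's strand from 250 bases before the start site to 50 bases after it. Capitals mark the core of the cAMP response element (CRE), TGACG, on either strand, so that CGTCA is the same core on the opposite strand. The Rgs2 window lies at chr1:144004100-144004399 and the Rgs4 window at chr1:169747593-169747892, both on the minus strand.
Rgs2: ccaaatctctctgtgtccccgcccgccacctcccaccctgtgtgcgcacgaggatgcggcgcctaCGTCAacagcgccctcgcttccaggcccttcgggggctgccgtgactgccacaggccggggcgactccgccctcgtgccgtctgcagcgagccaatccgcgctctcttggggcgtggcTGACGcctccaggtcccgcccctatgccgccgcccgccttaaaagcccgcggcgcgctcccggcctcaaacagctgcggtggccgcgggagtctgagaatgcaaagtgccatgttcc
Rgs4: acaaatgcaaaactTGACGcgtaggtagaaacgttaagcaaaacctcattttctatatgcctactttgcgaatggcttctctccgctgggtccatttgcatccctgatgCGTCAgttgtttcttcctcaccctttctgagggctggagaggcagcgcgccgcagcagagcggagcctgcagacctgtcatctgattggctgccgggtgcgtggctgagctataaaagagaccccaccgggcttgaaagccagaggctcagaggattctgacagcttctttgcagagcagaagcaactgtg
The Rgs2 window held 2 cores, at positions -185 to -181 and -67 to -63 from the start site, and the Rgs4 window held 2, at -236 to -232 and -141 to -137. At least 1 core was present in 20.8% of all 32851 promoter windows and at least 2 in 5.01%. The full CRE, TGACGTCA, was in 1.79% of windows, the CArG box of serum response factor in 1.63%, the AP-1 site TGANTCA in 7.81% and the EGR site GCGTGGGCG in 0.612%, each counted on both strands. A full CRE also holds the core on each strand. Rgs2 and Rgs4 had none of these longer motifs in their windows. Windows were found for 8 of the 10 members, all but Rgs14 and Rgs20. A window of Rgs8 held 1 core (-46 to -42), that of Rgs17 held 1 AP-1 site (-122 to -116), and the windows of Rgs6, Rgs7, Rgs10 and Rgs16 held none of the 5 motifs. A match describes the letters only.

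The abundance of the members was measured per length, as CPM per kilobase of merged exons (mean ± SD over 12 libraries). Rgs4, an R4 protein of pyramidal neurons that acts on Gi/o and Gq, was the most abundant at 118 ± 33 CPM per kilobase. Rgs14 followed at 27.8 ± 2.9 and Rgs2 at 25.8 ± 6.7 CPM per kilobase, and these 2 overlapped over the libraries. Their order changed with the group, with means of 30.0 for Rgs14 and 19.8 for Rgs2 in the 1 hr controls and of 29.1 and 34.9 CPM per kilobase in the 1 hr LTP slices. Rgs10 (11.6 ± 3.2), Rgs8 (10.8 ± 0.86), Rgs7 (9.56 ± 1.5) and Rgs17 (7.38 ± 1.0) formed a middle stretch in which each gene overlapped the next, Rgs10 having the higher mean than Rgs8 at 1 hr (14.2 against 10.8 in the controls) and the lower at 3 hr (9.05 against 11.3 CPM per kilobase). Rgs16 (3.54 ± 0.60) and Rgs20 (2.62 ± 0.19) also overlapped, and Rgs6, the longest gene of the set, was lowest at 0.941 ± 0.14 CPM per kilobase. Rgs4 in its lowest library (89.4 CPM per kilobase) was above Rgs2 in its highest (39.2 CPM per kilobase). For its expression analysis the study used reads in coding regions, and whether the deposited counts hold reads of untranslated regions is not given in the sources used here. Divided by the coding length, 6 of the 10 members kept their rank, while Rgs8 moved to second at 187 ± 15 CPM per coding kilobase, ahead of Rgs2 (138 ± 36), and Rgs14 lay below Rgs2 and Rgs17 (71.9 ± 7.4 against 88.8 ± 12 for Rgs17). Rgs4 stayed highest (594 ± 165) and Rgs6 lowest (4.97 ± 0.76).

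**Figure D1:**
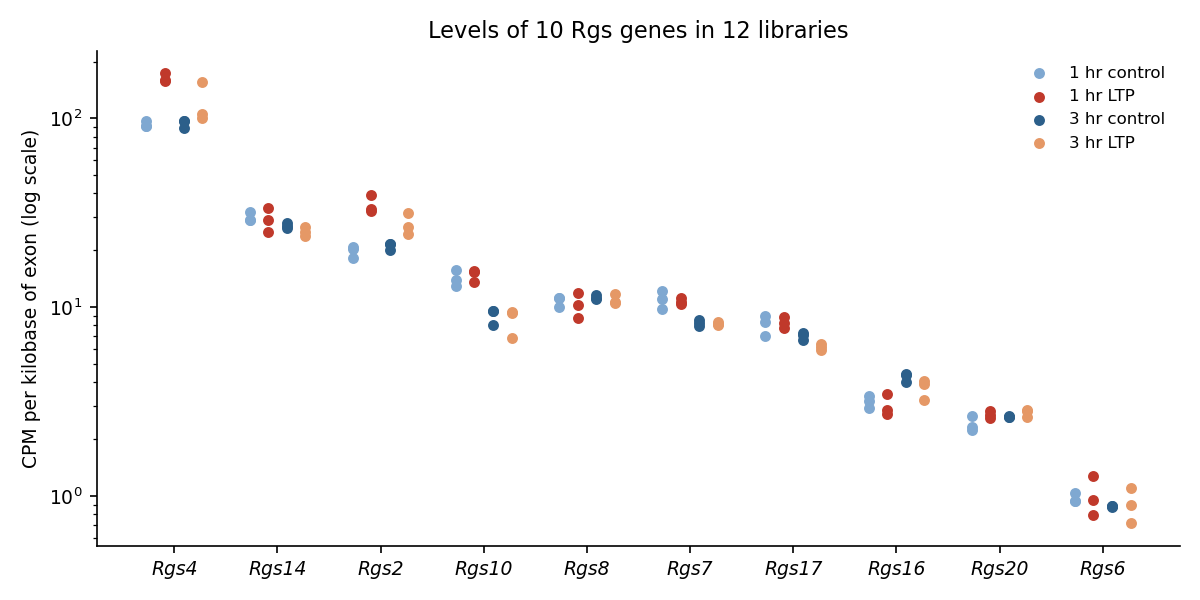
Levels of the 10 Rgs genes as CPM per kilobase of exon (log scale), 1 point per library and 12 libraries per gene, coloured by group and ordered by mean. Rgs4 lies above every other member in every library and Rgs6 below them, and the LTP points of Rgs2 and Rgs4 at 1 hr lie above the controls.

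The members share little by position except on chromosome 1. 6 of the 10 lie there (GRCm38): Rgs20 at chr1:4909576-5070285 (minus strand, ENSMUSG00000002459), Rgs2 at chr1:143999338-144004161 (minus, ENSMUSG00000026360), Rgs8 at chr1:153653025-153700323 (plus, ENSMUSG00000042671), Rgs16 at chr1:153740349-153745468 (plus, ENSMUSG00000026475), Rgs4 at chr1:169741477-169747642 (minus, ENSMUSG00000038530) and Rgs7 at chr1:175059087-175492500 (minus, ENSMUSG00000026527). Rgs8 and Rgs16 are neighbours, 40025 bases apart with 0 protein-coding genes between them. Rgs17 lies at chr10:5825663-5922400 (minus, ENSMUSG00000019775), Rgs6 at chr12:82588292-83162056 (plus, ENSMUSG00000021219), Rgs14 at chr13:55369732-55384687 (plus, ENSMUSG00000052087) and Rgs10 at chr7:128373621-128418758 (minus, ENSMUSG00000030844). Genes on the opposite strand share 10.1% of the exonic bases of Rgs16, 5.94% of those of Rgs20, and under 1% of those of Rgs6 and Rgs8. These are shares of bases and not of reads. How many of the counts of these members come from the genes on the opposite strand was not tested, since a strand setting is not given in the sources used here.

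To measure the early response, LTP slices were compared with control slices at 1 hr. Rgs2 and Rgs4 rose, and the remaining 8 members did not pass the test. In the 1 hr controls Rgs2 was at 73.7, 66.0 and 75.5 CPM in replicates 1, 2 and 3, and in the 1 hr LTP slices at 117, 142 and 119.8 CPM. The groups did not overlap, with or without control replicate 2. Rgs2 rose 1.71-fold (95% interval 1.499 to 1.94, log2 fold change 0.77, SE 0.087, adjusted p = 0.000228, edgeR quasi-likelihood test, 3 LTP and 2 control libraries). Rgs4 was at 299.95, 281 and 284 CPM in the controls and at 489, 537 and 494 CPM in the LTP slices, again without overlap. It rose 1.75-fold (1.57 to 1.94, log2 fold change 0.81, SE 0.071, adjusted p = 1.39e-05). Within single animals, the LTP slices held 1.59, 2.15 and 1.58 times the Rgs2 level of their own controls and 1.63, 1.91 and 1.74 times the Rgs4 level, the middle value of each resting on control replicate 2. Calls needed both a fold change above 1.2 and an adjusted p below 0.1, and 0.778% of the 17736 genes tested were called higher, against 2 of the 10 members.

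**Figure D2:**
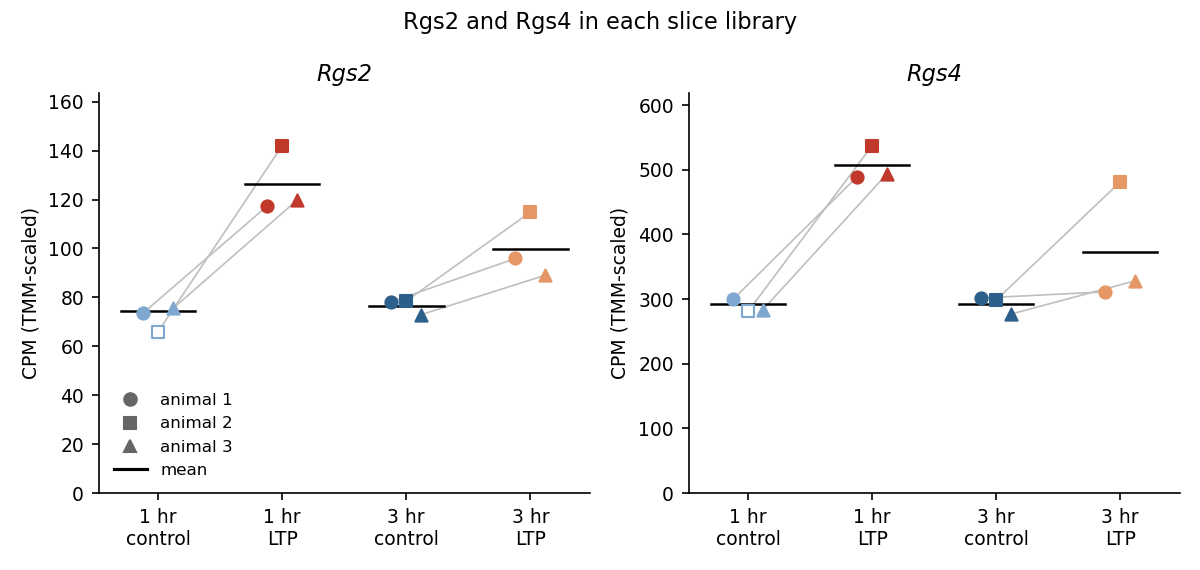
TMM-scaled CPM of Rgs2 and Rgs4 in each of the 12 libraries, with lines joining the control and LTP slices of 1 animal. The labels use animal numbers 1 to 3 at both time points and do not say whether these are the same animals, so lines stay within a time point. The hollow square is 1 hr control replicate 2, and the bars are group means drawn without it. At 1 hr every LTP point lies above every control point, and at 3 hr each LTP point is a smaller multiple of its own control than any at 1 hr, the nearest being animal 2 for Rgs4 (1.61 times at 3 hr, against 1.63 to 1.91 times at 1 hr).

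The other R4 members did not follow Rgs2 and Rgs4 at 1 hr. Rgs8, abundant in cerebellar Purkinje cells and here measured in hippocampus, ranged from 97.0 to 107.8 CPM in the controls and from 84.6 to 114 CPM in the LTP slices, with a log2 fold change of -0.03 (95% interval -0.25 to 0.18). Rgs16, the neighbour of Rgs8, ranged from 6.80 to 7.92 CPM in the controls and from 6.36 to 8.07 CPM in the LTP slices, with a log2 fold change of -0.0093 (-0.32 to 0.30). Outside the R4 group the log2 fold changes lay between -0.10 for Rgs7 (-0.26 to 0.06) and 0.13 for Rgs20 (-0.12 to 0.37), and the LTP and control ranges overlapped for each of these members. Without single libraries the values ran from -0.16 to -0.033 for Rgs7 and from 0.029 to 0.23 for Rgs20. The adjusted p of the 8 members was 0.92 or higher (edgeR). The intervals leave room for changes of up to 1.31-fold in the case of Rgs6 (0.802 to 1.31).

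No cell type marker was called for the LTP effect at 1 hr by edgeR or limma-voom, and DESeq2 called the CA2 marker Cacng5. All 5 endothelial and mural markers had lower estimates in LTP slices (log2 fold changes of -0.41 to -0.07, 3 with an unadjusted p under 0.05 in edgeR), and their summed level was 92.5 to 98.9 CPM in the controls and 77.6 to 82.6 CPM in the LTP slices. All 4 oligodendrocyte markers had higher estimates (0.17 to 0.26, 3 with an unadjusted p under 0.05), with sums of 4226 to 5148 and 4985 to 6016 CPM, and so had all 3 inhibitory neuron markers (0.11 to 0.20, 2 with an unadjusted p under 0.05), with sums of 339 to 385 and 384 to 409.9 CPM. All 4 CA2 markers had higher estimates as well (0.03 to 0.67, 2 with an unadjusted p under 0.05), with sums of 45.8 to 48.9 and 52.6 to 59.4 CPM. The sums of the endothelial and mural markers and of the CA2 markers did not overlap between the groups. Those of the oligodendrocyte and inhibitory neuron markers did. No marker of another list had an unadjusted p under 0.05 in edgeR. The part of these markers in the Rgs2 and Rgs4 values was not tested.

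At 3 hr Rgs2 was again higher in LTP slices, and no other member passed the test. It was at 78.2, 78.5 and 73.0 CPM in the 3 hr controls and at 95.9, 115 and 89.1 CPM in the LTP slices, and the groups did not overlap. Rgs2 rose 1.32-fold (95% interval 1.14 to 1.52, log2 fold change 0.40, SE 0.092, adjusted p = 0.0533, edgeR). Each animal's LTP slices lay above its own control, by 1.23, 1.46 and 1.22 times. The call was lost without 3 hr control replicate 1 (adjusted p = 0.166), 2 (0.202) or 3 (0.165) and without 3 hr LTP replicate 1 (0.145), while the log2 fold change stayed between 0.29 and 0.47.

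Rgs4 did not pass the test at 3 hr, and 1 library decided its value. It was at 301.7, 299 and 277 CPM in the 3 hr controls and at 311, 481 and 328 CPM in the LTP slices, where replicate 2 stood far above the others. The log2 fold change was 0.37 (SE 0.15, 95% interval 0.04 to 0.70, adjusted p = 0.203, edgeR), and without 3 hr LTP replicate 2 it was 0.15 (adjusted p = 0.152). All 3 LTP libraries were above all 3 controls, although replicate 1 lay only 1.03 times above its own control. Across all genes tested at 3 hr, 5.07% were called higher, against 1 of the 10 members.

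The RZ gene Rgs17 had the lowest adjusted p among the other 8 members at 3 hr. It was at 60.3, 58.8 and 55.3 CPM in the controls and at 53.1, 51.0 and 49.0 CPM in the LTP slices, so that the groups did not overlap. The log2 fold change was -0.17 (SE 0.065, unadjusted p = 0.0246, adjusted p = 0.173, edgeR), with values 0.881, 0.867 and 0.885 times the own control in the 3 animals. Rgs16 had a log2 fold change of -0.18 (95% interval -0.42 to 0.06), with LTP values from 7.52 to 9.50 CPM against 9.41 to 10.4 CPM in the controls. Its value was -0.079 without 3 hr LTP replicate 2 and lay between -0.25 and -0.15 without any other library, and it passed in none of these fits (adjusted p between 0.221 and 0.653). The remaining 6 members lay between -0.09 (Rgs14) and 0.08 (Rgs20). In both directions together, 6.6% of the 17508 genes tested were called, and of the members Rgs2 alone. No cell type marker was called at 3 hr by edgeR or limma-voom, and DESeq2 called the astrocyte marker Aqp4. In edgeR 1 marker each of the CA3, inhibitory neuron, astrocyte, endothelial and mural, and choroid plexus lists had an unadjusted p under 0.05.

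**Figure D3:**
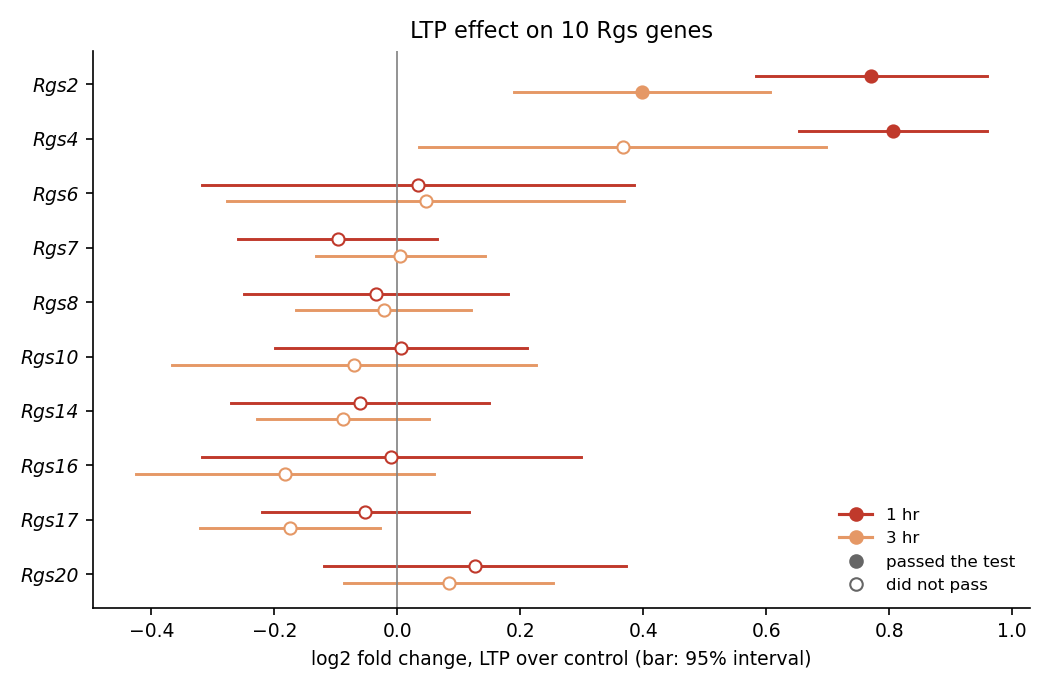
Log2 fold change of LTP over control slices for each of the 10 Rgs genes at 1 hr (3 LTP and 2 control libraries) and 3 hr (3 and 3), with 95% intervals and filled points for genes that passed the test. Rgs2 (0.77 and 0.40) and Rgs4 (0.81 and 0.37) lie to the right of the other 8, whose intervals at 1 hr all cross 0.

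Whether the LTP effect differed between the time points was tested as an interaction in 1 model of the 4 groups with 11 libraries. None of the 10 members was called (edgeR, adjusted p under 0.1), against 0.0592% of 18584 genes. DESeq2 and limma-voom also called 0 members, and 2 members, Rgs2 and Rgs4, had an unadjusted p under 0.05. For Rgs2 the 3 hr effect minus the 1 hr effect was -0.37 on the log2 scale (95% interval -0.66 to -0.07, unadjusted p = 0.0185, adjusted p = 0.638, edgeR). For Rgs4 the difference was -0.43 (-0.83 to -0.04, unadjusted p = 0.0336, adjusted p = 0.715, edgeR), and without 3 hr LTP replicate 2 it was -0.68 and passed (adjusted p = 0.00922). The other 8 differences lay between -0.17 (Rgs16) and 0.11 (Rgs7), with intervals that included 0. Without single libraries the difference ran from -0.26 to -0.047 for Rgs16 and from 0.014 to 0.15 for Rgs7.

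The controls of the 2 time points were compared to see how the members varied in slices that received vehicle. The labels repeat the animal numbers 1 to 3 at both time points without saying whether the animals are the same. They are assumed here to differ, and in that case time and animal cannot be told apart. Each time point also has its own count table, and whether the 2 sets of slices were handled apart is not given in the sources used here. Rose and fell describe the 2 groups in this comparison and not a course within 1 slice. Rgs7, Rgs10 and Rgs17 were lower at 3 hr and Rgs16 was higher. Of all genes 32.8% were called in this comparison, 16.1% higher and 16.8% lower, so 4 of 10 members is a share near that of all genes. The median log2 fold change was -0.11 over the members and -0.02 over all genes.

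Rgs7, which forms a complex with Gnb5 and is anchored by Rgs7bp and Gpr158, was at 73.0, 59.1 and 66.8 CPM in the 1 hr controls and at 49.8, 51.4 and 47.8 CPM in the 3 hr controls. Every 1 hr value was above every 3 hr value. Rgs7 fell to 0.696 times its 1 hr level (95% interval 0.630 to 0.770, log2 fold change -0.52, adjusted p = 0.000174, edgeR). Its relative Rgs6 was low throughout, at 9.43 to 10.4 CPM at 1 hr and 8.76 to 8.91 CPM at 3 hr, and did not pass (log2 fold change -0.20, adjusted p = 0.444). Of 5 partners of RGS proteins tested, 2 fell, and these were the Rgs7 anchors Rgs7bp (log2 fold change -0.41, adjusted p = 0.000565) and Gpr158 (-0.28, adjusted p = 0.00736), beside 16.8% of all genes called lower. Gnb5 itself was not called (0.19).

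Rgs10 was at 23.7, 22.1 and 27.0 CPM in the 1 hr controls and at 16.4, 16.3 and 13.8 CPM in the 3 hr controls, without overlap. Its level at 3 hr was 0.598 times that at 1 hr (95% interval 0.493 to 0.724, log2 fold change -0.74, adjusted p = 0.00103, edgeR). Markers of microglia, cells in which Rgs10 is abundant, moved with it. Of 6 microglia markers, 5 were lower at 3 hr, and their summed level was 237 to 266 CPM in the 1 hr controls and 176 to 202 CPM in the 3 hr controls. The log2 fold changes of the 6 ran from -1.44 to -0.18, with a median of -0.67. The purinergic receptor P2ry12 was at -1.44 and the fractalkine receptor Cx3cr1 at -0.81. None of the 6 had a level near 0 CPM, the lowest being Aif1 with 3.90 CPM in the 1 hr and 2.75 CPM in the 3 hr controls. Their part in the Rgs10 result was not tested. Rgs14, the other R12 member, was at 122 to 136 CPM at 1 hr and 111 to 118 CPM at 3 hr and did not pass (log2 fold change -0.21, adjusted p = 0.122, edgeR). Without single libraries its log2 fold change lay between -0.24 and -0.10.

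Rgs17 was at 74.1, 58.0 and 69.4 CPM in the 1 hr controls and at 60.3, 58.8 and 55.3 CPM in the 3 hr controls. Control replicate 2 of 1 hr lies inside the 3 hr range, and the other 1 hr values lie above it. Without that library Rgs17 fell to 0.794 times its 1 hr level (95% interval 0.712 to 0.886, log2 fold change -0.33, adjusted p = 0.00441, edgeR). The value was under the fold change minimum, and the call lost, with 1 hr control replicate 2 included (log2 fold change -0.21) and without 1 hr control replicate 1 (-0.25). The other RZ member, Rgs20, was at 9.52 to 11.3 CPM at 1 hr and 11.03 to 11.24 CPM at 3 hr (log2 fold change 0.05).

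Rgs16 was the only member called higher at 3 hr in the controls. It was at 7.46, 7.92 and 6.80 CPM at 1 hr and at 9.41, 10.2 and 10.4 CPM at 3 hr, without overlap. It rose 1.37-fold (95% interval 1.13 to 1.67, log2 fold change 0.46, adjusted p = 0.018, edgeR), and the call was lost without 1 hr control replicate 3 (adjusted p = 0.114). Its neighbour Rgs8 was at 97.0 to 107.8 CPM at 1 hr and 107 to 111 CPM at 3 hr and was not called (log2 fold change 0.06). Rgs2 (0.0082) and Rgs4 (-0.03), the members that rose after LTP induction, did not pass between the controls either, with 95% intervals of -0.21 to 0.23 and -0.32 to 0.27.

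Markers of other cell types moved between the controls of 1 hr and 3 hr as well, and their part in the values of Rgs7, Rgs16, Rgs17 and the mural cell gene Rgs5 was not tested. Of 4 excitatory neuron markers 2 were lower at 3 hr, Neurod6 (log2 fold change -1.10) and Neurod1 (-0.27), and the summed level was 2685 to 2859 CPM in the 1 hr controls and 2718 to 2805 CPM in the 3 hr controls. Of 4 CA1 markers 2 were higher, Pou3f1 (0.54) and Fibcd1 (0.40), with sums of 361 to 415 and 442 to 527 CPM. Of 3 CA3 markers Bok was higher (0.74) and Iyd lower (-0.34), with sums of 123 to 149 and 152 to 158 CPM. Of 3 inhibitory neuron markers Slc32a1 was higher (0.55) and Gad2 lower (-0.41), with sums of 339 to 385 and 359.6 to 394 CPM. Of 4 oligodendrocyte markers 2 were higher, Mag (0.63) and Mbp (0.52), and their sum of 4226 to 5148 CPM at 1 hr did not reach that of 5786 to 7114 CPM at 3 hr. Of 5 endothelial and mural markers Pecam1 (-0.37) and Flt1 (-0.32) were lower, with sums of 92.5 to 98.9 and 81.9 to 83.6 CPM, and the mural markers Pdgfrb (-0.22) and Kcnj8 (-0.10) were not called. None of the 4 CA2, 4 dentate granule and 3 astrocyte markers was called by edgeR, DESeq2 or limma-voom, and 1 astrocyte marker had an unadjusted p under 0.05 (edgeR).

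**Figure D4:**
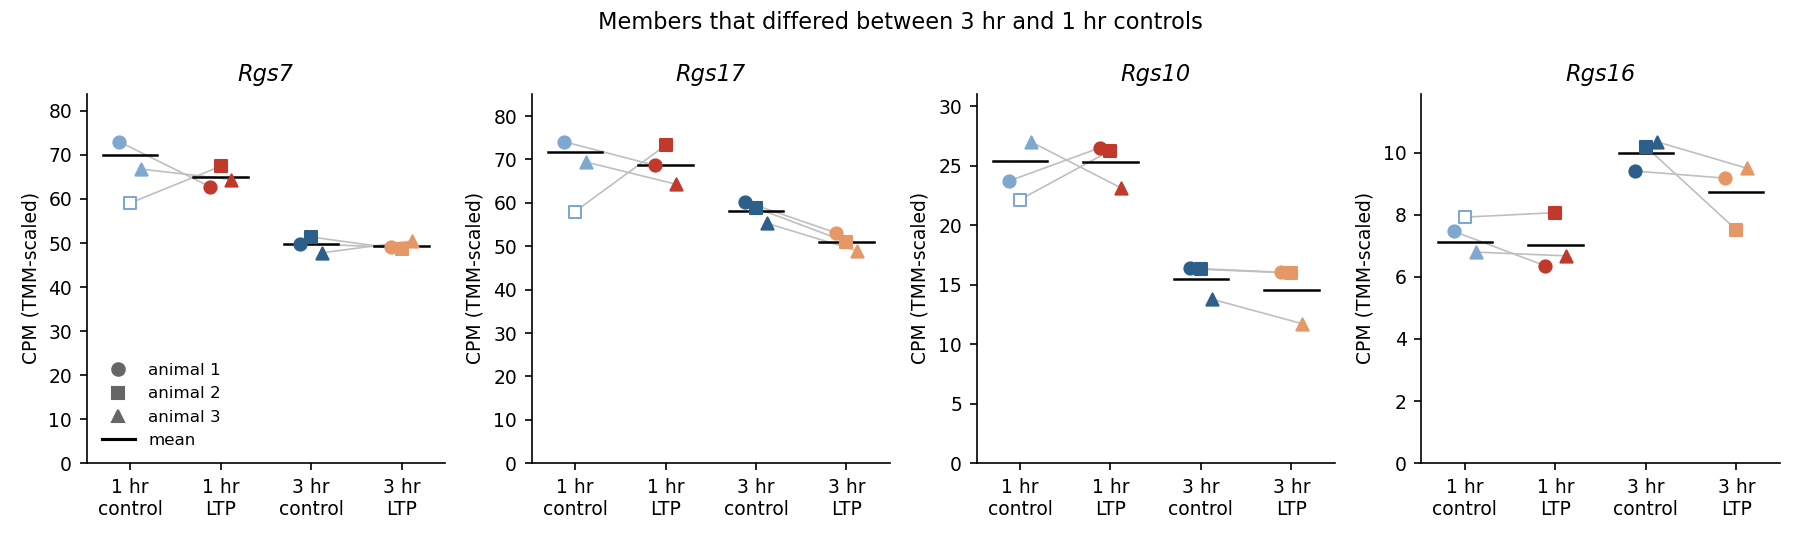
TMM-scaled CPM of Rgs7, Rgs17, Rgs10 and Rgs16 in each of the 12 libraries, with lines joining the slices of 1 animal within a time point, a hollow square for 1 hr control replicate 2 and bars for group means drawn without it. Rgs7 and Rgs10 are lower at 3 hr than at 1 hr in every library, for Rgs17 1 hr control replicate 2 falls within the 3 hr control range, and Rgs16 is higher in the 3 hr controls.

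The LTP slices of the 2 time points share no library with the controls, and were compared in the same model after the control values had been seen. Here 35.9% of all genes were called, 18.6% higher and 17.3% lower, and of the members 5 were lower and 1 higher. Rgs10 (log2 fold change -0.81, adjusted p = 0.000244), Rgs7 (-0.41, adjusted p = 0.00027) and Rgs17 (-0.45, adjusted p = 0.000272) were lower at 3 hr (edgeR). LTP and control slices of a time point came from the same animals, so a difference between the animals of 1 hr and 3 hr, if they differ, would appear in both comparisons. Rgs7 was at 62.8, 67.4 and 64.4 CPM in the 1 hr LTP slices and at 49.1, 48.6 and 50.5 CPM in the 3 hr LTP slices. Rgs10 was at 26.5, 26.3 and 23.1 CPM and then at 16.0, 15.98 and 11.7 CPM, beside a summed level of the microglia markers of 246 to 262 and 165 to 189 CPM. Rgs17 was at 68.7, 73.2 and 64.3 CPM and then at 53.1, 51.0 and 49.0 CPM. The calls of these 3 members held in all 19 alternatives.

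Rgs2 and Rgs4 were lower in the 3 hr than in the 1 hr LTP slices, Rgs2 with a log2 fold change of -0.36 (95% interval -0.55 to -0.16, adjusted p = 0.00781, edgeR) and Rgs4 with -0.46 (-0.72 to -0.20, adjusted p = 0.00996). Neither overlapped between the time points, the highest 3 hr LTP value of Rgs4 being 481 CPM and the lowest 1 hr LTP value 489 CPM. Without 1 hr LTP replicate 2 the Rgs2 value was -0.24 and under the fold change minimum. Whether the time difference itself differs between LTP and control slices is the interaction given above, which no member passed. Rgs16 was higher (0.29, adjusted p = 0.0666), and this call was lost without 1 hr LTP replicate 1 or 3 or 3 hr LTP replicate 1 or 3 (adjusted p between 0.126 and 0.184). Rgs14 had a log2 fold change of -0.23 (adjusted p = 0.0559), under the fold change minimum. It was called lower without 1 hr LTP replicate 2 (-0.30, adjusted p = 0.0151) and without 3 hr LTP replicate 1 (-0.27, adjusted p = 0.0616), and was at -0.089 without 1 hr LTP replicate 3 (adjusted p = 0.407).

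Rgs14 was set beside the CA2 markers because it is enriched in CA2 pyramidal neurons. It was at 123, 122 and 136 CPM in the 1 hr controls and at 122, 106 and 142 CPM in the 1 hr LTP slices. At 3 hr it was at 114, 118 and 111 CPM in the controls and at 112, 101 and 106 CPM in the LTP slices. The summed level of the 4 CA2 markers Pcp4, Amigo2, Map3k15 and Cacng5 was 45.8 to 48.9 CPM in the 1 hr controls, 52.6 to 59.4 CPM in the 1 hr LTP slices, 44.1 to 49.1 CPM in the 3 hr controls and 42.3 to 49.4 CPM in the 3 hr LTP slices. All 4 markers had estimates above 0 for the LTP effect at 1 hr (log2 fold changes of 0.03 to 0.67), where Rgs14 was at -0.06 (95% interval -0.27 to 0.15). None of the 4 was called for the LTP effect at 1 hr by edgeR (2 with an unadjusted p under 0.05), DESeq2 called Cacng5 and limma-voom 0, and Map3k15 (-0.51) and Cacng5 (-0.51) were lower in the 3 hr than in the 1 hr LTP slices. Their part in the Rgs14 values was not tested.

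The markers of the other cell types were also compared between the LTP slices of 1 hr and 3 hr, and their part in the values of Rgs7, Rgs16, Rgs17 and Rgs5 was not tested. Of 4 excitatory neuron markers Neurod6 (log2 fold change -0.91) and Neurod1 (-0.27) were lower at 3 hr, and the summed level was 2422 to 2911 CPM in the 1 hr and 2394 to 3734 CPM in the 3 hr LTP slices. Of 4 CA1 markers Fibcd1 (0.47) and Pou3f1 (0.41) were higher, with sums of 347 to 459 and 445 to 527 CPM. Of 3 CA3 markers Bok was higher (0.63) and Iyd lower (-0.45), with sums of 102 to 134 and 132 to 168 CPM, and of 3 inhibitory neuron markers Gad2 was lower (-0.44), with sums of 384 to 409.9 and 398 to 424 CPM. Of 4 oligodendrocyte markers Mag (0.40) and Mbp (0.28) were higher, with sums of 4985 to 6016 and 5752 to 7051 CPM. Of 5 endothelial and mural markers Cldn5 (0.41) and the mural gene Kcnj8 (0.47) were higher, the opposite direction to Rgs5, with sums of 77.6 to 82.6 and 78.1 to 93.9 CPM, and Pdgfrb (-0.25, adjusted p = 0.0836, edgeR) was under the fold change minimum. Of 6 microglia markers 5 were lower, and none of the 4 dentate granule and 3 astrocyte markers was called by edgeR, DESeq2 or limma-voom (2 astrocyte markers with an unadjusted p under 0.05 in edgeR).

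The patterns of Rgs2 and Rgs4 were alike over the libraries. Over 11 libraries Pearson's r of their log2(CPM + 0.1) values was 0.963, and over 12 libraries 0.957. These points share the LTP treatment and the time points, so r describes these libraries only. Among the 14185 genes that averaged 1 CPM or more, the 3 most like Rgs2 were Errfi1 (r = 0.969), an inhibitor of the EGF receptor, Rgs4 itself, and the immediate early transcription factor Egr2 (r = 0.963). The 3 most like Rgs4 were Rgs2, the F-box gene Fbxo33 (r = 0.963) and the histone chaperone gene Spty2d1 (r = 0.960). All of these were called higher in LTP slices at 1 hr, with log2 fold changes of 0.82 for Errfi1, 2.47 for Egr2, 0.44 for Fbxo33 and 0.49 for Spty2d1.

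The other genes of the pathway were read from 8 lists. At 1 hr none of the 104 genes tested in them was called (edgeR), beside 0.789% of all genes in either direction, and DESeq2 and limma-voom also called 0. By edgeR 8 of the 104 had an unadjusted p under 0.05. The lists held 9 other RGS genes that were tested, 4 partners of RGS proteins, 13 G alpha genes, 13 G beta and gamma genes, 28 Gi/o-coupled and 19 Gq-coupled receptors, 8 G-protein-gated channels and phospholipase C beta genes, and 10 receptor kinases, arrestins and GoLoco proteins. The 9 other RGS genes had a median log2 fold change of 0.0048, against -0.0010 over all genes. At 3 hr LTP was accompanied by 4 calls in these lists, beside 6.6% of all genes. DESeq2 called the same 4 and Rgs1 (log2 fold change 0.68 and adjusted p = 0.12 in edgeR), and limma-voom the same 4. Of 28 Gi/o-coupled receptors 2 rose and 1 fell. The serotonin receptor Htr1b rose (6.18 ± 0.32 CPM in controls and 10.5 ± 1.4 CPM in LTP slices, mean ± SD, n = 3, log2 fold change 0.77, adjusted p = 0.0121, edgeR). The galanin receptor Galr1 rose as well, at a low level (0.263 ± 0.048 and 0.594 ± 0.11 CPM, log2 fold change 1.17, adjusted p = 0.0562), and the adrenergic receptor Adra2c fell (30.8 ± 3.2 and 24.5 ± 0.70 CPM, log2 fold change -0.32, adjusted p = 0.0925). Of 8 G-protein-gated channels and phospholipase C beta genes 1 rose, the GIRK channel subunit Kcnj6 (56.6 ± 2.9 and 77.4 ± 6.5 CPM, log2 fold change 0.47, adjusted p = 0.0179). The median log2 fold change of the Gi/o-coupled receptors was 0.06, against -0.0025 over all genes. Of the 4 genes called at 3 hr, none was called at 1 hr. Their 1 hr means ± SD in controls and LTP slices (n = 3, control replicate 2 included) were 5.27 ± 1.1 and 8.09 ± 1.3 CPM for Htr1b and 0.235 ± 0.043 and 0.671 ± 0.37 CPM for Galr1. For Adra2c they were 24.1 ± 2.7 and 22.8 ± 2.5 CPM, and for Kcnj6 62.0 ± 3.4 and 66.9 ± 4.8 CPM. The difference between the time points was called in none of 105 list genes by edgeR, DESeq2 or limma-voom (7 with an unadjusted p under 0.05 in edgeR).

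Between the controls of 3 hr and 1 hr the lists held calls in both directions, to be read against 32.8% of all genes. Of the 9 other RGS genes tested 2 were lower, the mural cell gene Rgs5 (log2 fold change -0.48) and the leukocyte gene Rgs1 (-0.64), and none was higher. The channel and phospholipase C beta list had 4 of 8 genes lower and 0 higher, namely Plcb1 (-0.46), the GIRK subunit Kcnj3 (-0.44), Plcb4 (-0.66) and Plcb2 (-0.76). Of 13 G alpha genes Gna13 (0.36) and Gna12 (0.31) were higher and Gnal (-0.32) and Gna15 (-0.82) lower, and of 13 G beta and gamma genes Gnb2 (0.50) and Gng7 (0.34) were higher and Gng2 (-0.48) and Gng13 (-0.53) lower. Gi/o-coupled receptors had 4 higher and 5 lower of 28, among them the somatostatin receptors Sstr2 (0.91) and Sstr1 (0.57) and the GABA-B subunits Gabbr1 (-0.31) and Gabbr2 (-0.35). Gq-coupled receptors had 4 higher and 2 lower of 19, with the smallest p for Htr2a (-0.55), Adra1d (0.79), Adra1a (0.38) and Tacr1 (1.05). Of 10 receptor kinases, arrestins and GoLoco proteins, Gpsm1 was higher (0.54), and Gpsm2 (-0.28) and the kinase Grk4 (-0.46) were lower. The GoLoco proteins among them bind G alpha as Rgs14 does.

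Between the LTP slices of 3 hr and 1 hr the same lists are to be read against 35.9% of all genes. Of the 9 other RGS genes Rgs5 (-0.37) and Rgs22 (-0.55) were lower and Rgs11 (0.39) higher, and none of the 5 partners passed both thresholds, Rgs7bp being at -0.21 (adjusted p = 0.0118) and Gpr158 at -0.23 (adjusted p = 0.0108), each under the fold change minimum. In the channel and phospholipase C beta list 3 of 8 were lower, Kcnj3 (-0.47), Plcb1 (-0.37) and Plcb4 (-0.84), and 0 higher. Of 13 G alpha genes Gna12 (0.36) was higher and Gnas (-0.30), Gnal (-0.31) and Gna15 (-0.89) were lower, while 3 of 13 G beta and gamma genes were higher and 3 lower. Gi/o-coupled receptors had 5 of 28 higher and 2 lower, and Gq-coupled receptors 4 of 19 higher and 2 lower. Of 10 receptor kinases, arrestins and GoLoco proteins Gpsm1 was higher (0.57), and Gpsm2 (-0.32) and Grk4 (-0.34) were lower.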

How the data were processed

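The deposited tables, 1 per time point, hold raw counts of reads per gene. According to the study's methods, the authors prepared stranded total RNA libraries after depletion of ribosomal RNA, aligned the reads with STAR to GRCm38/mm10 and counted them per gene with Bioconductor packages. The annotation release and strand setting are not given in the sources used here. Of 41091 gene IDs, 40217 matched GENCODE M21 and 874 did not, and the latter stayed in library sizes and tests.

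Counts were tested in edgeR 4.0.16 (R 4.3.3, quasi-likelihood F test) after filterByExpr and TMM scaling, with Benjamini-Hochberg adjustment over all genes tested. Calls needed a fold change above 1.2 (except in the interaction) and an adjusted p below 0.1, which follows the study. The 1 hr fit held 5 libraries and the 3 hr fit 6. The interaction and the comparisons between time points came from 1 model of 11 libraries. The comparison of the 3 hr and 1 hr LTP slices was added after the data had been seen. P-values measure the spread between the libraries of a group, each from a different animal, and within a time point each animal gave 2 libraries, 1 per treatment. The labels use animal numbers 1 to 3 at both time points, and the animals of 1 hr and 3 hr were assumed to differ. CPM values are TMM-scaled over 12 libraries, and log2 values used a pseudocount of 0.1 CPM.

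The members, the 8 pathway lists and the marker lists were chosen with earlier results of these data known. All 10 members are named in every comparison, from each pathway list at most 4 called genes by smallest p, and for each member called after LTP induction the 3 genes of highest correlation. The labels pair the LTP and control libraries of an animal within a time point. As a check, the deviations of paired libraries from their group means were correlated across 18240 genes, which gave -0.015, -0.16 and 0.075 (1 hr, animals 1, 2 and 3) and 0.038, -0.028 and 0.22 (3 hr). Fits with the animal as a replicate block were run as alternatives, beside DESeq2 1.42.0, limma-voom (limma 3.58.1), other scalings and filters, and fits without each library. Promoter windows came from RefSeq.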

Additional observations from a re-analysis of the deposited data

How the results depend on the processing

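The calls of Rgs2 and Rgs4 at 1 hr held in all 15 alternatives, with log2 fold changes of 0.68 to 0.83 and 0.76 to 0.85. At 3 hr the number of members called was 0 to 1 when single libraries were left out. The number called in the interaction was likewise 0 to 1, with Rgs4 called without 3 hr LTP replicate 2. The fits with the animal as a replicate block called 2 members at 1 hr, 1 at 3 hr and 0 in the interaction, as without it, and changed no call of a member in these 3 comparisons. Between the time points the labels give only a repeated number. With that number as a replicate block, added after seeing the data, 4 members were called between the controls and 6 between the LTP slices, as without it, and no call of a member changed. With the block, the log2 fold changes were 0.68 for Rgs2 and 0.76 for Rgs4 at 1 hr, and 0.39 and 0.34 at 3 hr. Over all genes the number called ran from 69 (without 1 hr control replicate 1) to 347 (no filter beyond 1 count) around 140 at 1 hr, from 228 (without 3 hr control replicate 2) to 2170 (without 3 hr LTP replicate 2) around 1155 at 3 hr, and from 1 (without 1 hr control replicate 3) to 102 (no filter beyond 1 count) around 11 in the interaction, where DESeq2 gave 58. With the longest transcript as length 6 of 10 members kept their rank, with the coding length, added after seeing the data, also 6, and with Spearman's rho 2 of 6 most alike genes were the same. The cause was not tested.

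None of the 58 estimates whose sign changed was called in either fit. With the replicate block the log2 values at 1 hr were 0.063 for Rgs8, -0.026 for Rgs10 and 0.032 for Rgs14, in the interaction -0.0035 for Rgs6 and -0.081 for Rgs8, and between the controls, with the repeated animal number as the block, -0.060 for Rgs2. With 1 hr control replicate 2 included Rgs17 was at 0.042 at 1 hr (0.046 with the replicate block), Rgs6 at -0.013 in the interaction (-0.0071 with the replicate block) and Rgs4 at 0.020 between the controls. In 1 model of the 4 groups Rgs10 was at -0.0045 at 1 hr. With total counts Rgs7 was at -0.0097 at 3 hr, Rgs6 at -0.0044 and Rgs8 at -0.0016 in the interaction, and Rgs4 at 0.012 between the controls. With no filter Rgs7 was at -0.011 at 3 hr, and with at least 10 counts in every library Rgs6 was at -0.0093 and Rgs8 at -0.0078 in the interaction and Rgs4 at 0.0054 between the controls. With single libraries left out, the ranges at 1 hr were -0.17 to 0.18 for Rgs6, -0.14 to 0.064 for Rgs8, -0.086 to 0.10 for Rgs10, -0.17 to 0.034 for Rgs14 and -0.12 to 0.059 for Rgs16. At 3 hr they were -0.12 to 0.20 for Rgs6, -0.019 to 0.027 for Rgs7, -0.084 to 0.014 for Rgs8 and -0.15 to 0.055 for Rgs10. In the interaction they were -0.17 to 0.23 for Rgs6, -0.084 to 0.14 for Rgs8, -0.19 to 0.047 for Rgs10, -0.12 to 0.10 for Rgs14 and -0.17 to 0.031 for Rgs20. Between the controls they were -0.029 to 0.053 for Rgs4 and -0.0029 to 0.19 for Rgs20, and between the LTP slices -0.34 to 0.056 for Rgs6 and -0.0062 to 0.083 for Rgs20.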
